A study of Mus musculus with 6 samples.

Results

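Sost, Sostdc1, Lrp4, Lrp5 and Lrp6 take part in the step at which Wnt signalling is received or restrained at the surface of bone cells. Sost, which encodes sclerostin, and Sostdc1 encode secreted inhibitors, and the other 3 genes encode membrane receptors. They were followed in osteocytes, the cells embedded in bone matrix, with and without estrogen receptor alpha (ERα), the nuclear receptor encoded by Esr1. Every probe set that the platform annotation gave to 1 of these genes alone was taken, which made 8 probe sets of 45037 and 5 genes of the 18193 with a probe set. Sost, Sostdc1 and Lrp6 had 2 probe sets each, and Lrp4 and Lrp5 had 1 each.

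The knockout group held 3 arrays of osteocytes from mice with an osteocyte-specific loss of ERα, named ERαΔOcy/ΔOcy in the extraction protocol. The control group held 3 arrays from littermates, which the sample names call WT and the protocol ERαflox/flox. All 6 samples were of calvarial cells from female C57/BL6 mice of 10 to 12 days, with green fluorescent protein under the Dmp1 promoter in both genotypes. Cells of digestion fractions 4 to 6 were sorted through a gate that passed 10% to 15% of the cells of mice with the marker and 0.8% to 1.0% where it was lacking. The sources used here give neither the driver of the deletion nor the Cre status of the controls, so Cre and loss of ERα cannot be told apart. The design text says that RNA was not pooled while the protocol speaks of pooled tissue, so arrays of a genotype may share tissue and the p-values may then measure technical spread.

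Sclerostin is secreted mainly by osteocytes and lowers bone formation. It binds the outer domains of Lrp5 and Lrp6, the coreceptors that Wnt proteins need beside a Frizzled receptor to stabilise β-catenin, and Lrp4 holds sclerostin at the cell surface and strengthens its effect. Sostdc1, also called ectodin, Wise or USAG-1, is the closest relative of sclerostin and is known as an antagonist of bone morphogenetic proteins (BMPs) that also binds Lrp4 and Lrp6.

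The sequence just before the start of Sost is shown because an activated ERα can bind DNA and Sost is the defining osteocyte gene of the group. It is the RefSeq sequence of GRCm38.p6, chr11:101967016-101967265, minus strand, given 5′ to 3′ and ending 1 base before the annotated start. RefSeq promoters were matched for 1 of the 5 genes. Capitals mark matches to the motifs searched on both strands.

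Sost: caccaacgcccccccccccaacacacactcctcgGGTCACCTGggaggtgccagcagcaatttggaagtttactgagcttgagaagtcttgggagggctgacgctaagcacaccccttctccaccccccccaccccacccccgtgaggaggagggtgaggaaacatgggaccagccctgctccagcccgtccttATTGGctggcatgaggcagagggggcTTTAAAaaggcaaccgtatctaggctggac

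The estrogen receptor half-site GGTCA stood 216 to 212 bases before the start and overlapped an E-box, CANNTG, at 213 to 208. The CCAAT box stood on the strand opposite to the one shown, 56 to 52 bases before the start, and TTTAAA stood 30 to 25 bases before it, where a TATA box often lies. The full estrogen response element GGTCANNNTGACC and the TATA box TATAAA had no match. Among 32851 mouse promoters of the same 250 bases, 35.2% held the half-site, 66.2% the E-box, 33.9% the CCAAT box and 12.1% TTTAAA, while 0.0639% held the full element and 12.4% TATAAA. These matches describe the letters of this window alone.

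The sorted cells carried RNA of the osteocyte genes Dmp1 and Phex in both groups. Levels are log2(signal + 16) after quantile normalisation of the arrays, read from the brightest probe set of a gene unless another is named, and differences are knockout minus control on that scale. Dmp1, a matrix protein of osteocytes, had log2 levels of 12.55 ± 0.14 in knockout and 12.85 ± 0.16 in control arrays (SD, n = 3 each). Phex, an osteocyte peptidase, had 10.94 ± 0.05 in knockout and 10.96 ± 0.07 in control arrays (SD, n = 3 each). The gate used a marker under the Dmp1 promoter, so the level of Dmp1 is no independent check of the cells. Mepe, another osteocyte gene, was dim, at 6.13 ± 0.19 in knockout and 5.68 ± 0.63 in control arrays (SD, n = 3 each). Fgf23, also a listed osteocyte marker, was too dim to be tested. Dmp1 differed by -0.30 ± 0.10 (SE, limma adjusted p = 0.410), with groups that overlapped. Among the 15 listed osteocyte markers 14 were tested, 5 higher and 9 lower in knockout arrays, with a median difference of -0.06. In limma 0 of them passed an adjusted p of 0.05. At an unadjusted p under 0.05, 1 was higher and 2 were lower, Dmp1 among the lower ones. Over all tested genes, 5.85% were higher and 4.69% lower at that p, and 48.3% were higher by any amount. The array medians of the deposited signal ran from 20.2 to 28.6 in knockout and from 18.7 to 22.7 in control arrays. The brightest probe set of the targeted gene, Esr1, had 6.63, 6.60 and 6.82 in knockout arrays, against 6.97, 6.89 and 6.80 in control arrays, so the groups overlapped. Where its probes lie relative to the deleted part is not known here, so it does not check the labels. Summed signals of 14 skeletal muscle markers ran from 4717 to 17857 in knockout arrays and from 210 to 38171 in control arrays, and control replicate 2, at 210, stood apart by this measure. In these bulk samples fewer cells of a type and less RNA per cell cannot be told apart.

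Of the 5 genes, Sostdc1 and Lrp6 were higher in every knockout array than in every control array, while the levels of Sost, Lrp4 and Lrp5 overlapped between the groups. In limma, a linear model with a moderated variance fitted over 10916 genes, none of the 5 passed an adjusted p of 0.05, and neither did any other gene (0% of those tested). At an unadjusted p under 0.05, 2 of the 5 were higher and 0 lower, where 5.85% of all tested genes were higher and 4.69% lower. Groups did not overlap for 2 of the 5, both higher, where 9.23% of tested genes were higher and 7.76% lower in this way. The median difference of the 5 genes was 0.21 on the log2 scale, beside -0.01 over all genes tested. The genes were chosen with results of these arrays known, so these counts are a description.

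**Figure D1:**
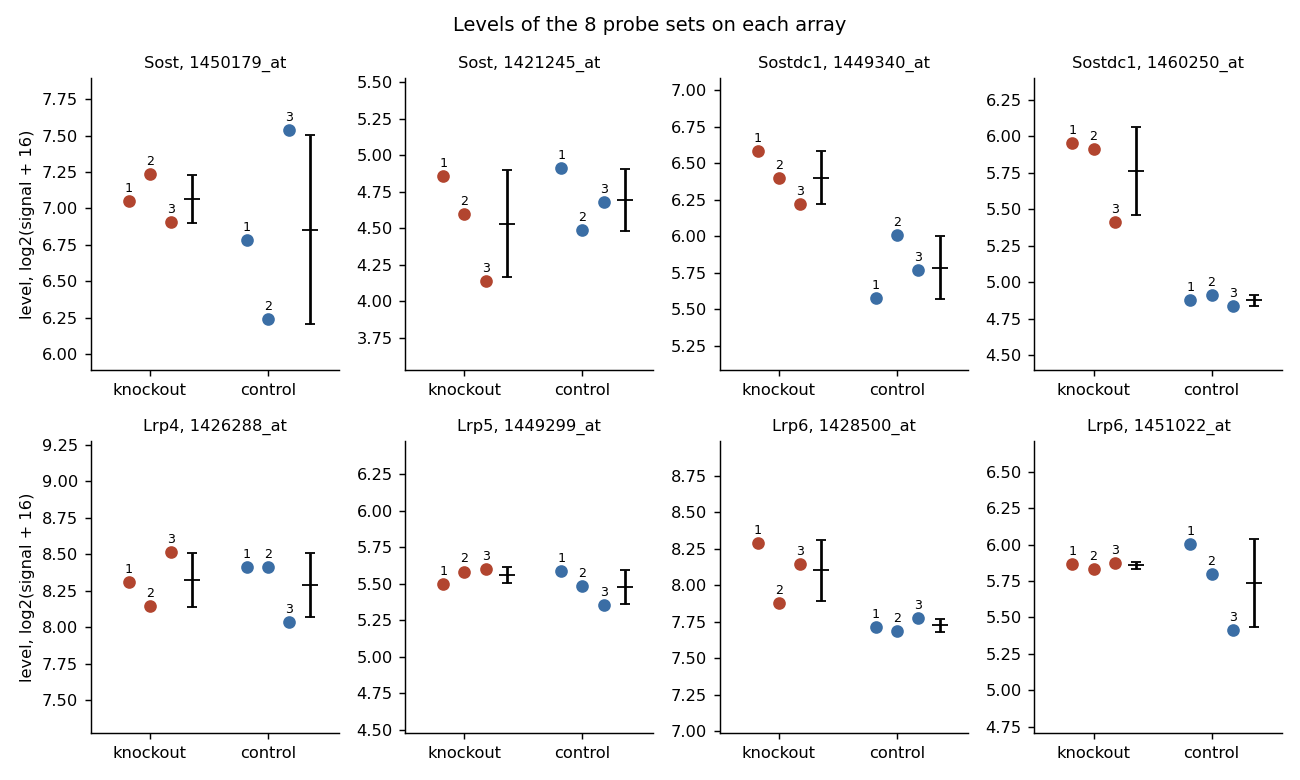
Levels of the 8 probe sets on each array, as log2(signal + 16) after quantile normalisation, with knockout arrays left of control arrays, numbered by replicate, and the mean ± SD (n = 3 each) beside each group. All panels span 2 log2 units. Both Sostdc1 probe sets and the brighter one of Lrp6 separate the groups, and the brighter one of Sost is widest among the control arrays.

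Sost varied most among the control arrays. Its brighter probe set had log2 levels of 7.05, 7.24 and 6.91 in knockout replicates 1, 2 and 3, against 6.78, 6.25 and 7.54 in control replicates 1, 2 and 3. Control arrays held both the lowest and the highest value, and the knockout arrays lay between them. The standard deviation was 0.16 in knockout and 0.65 in control arrays, and 4.35% of all tested genes had a larger one among the controls. The lowest and the highest deposited signal also fell on control arrays, with 114.3, 127.8 and 132.4 in knockout arrays and 99.5, 54.4 and 147.3 in control arrays.

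The difference for Sost was 0.21 ± 0.30 (SE, limma adjusted p = 0.840), and its 95% interval, from -0.48 to 0.91, reached from 0.716-fold to 1.87-fold. With 1 array left out its sign turned once, without control replicate 2, to -0.09 (limma adjusted p = 0.884). Without control replicate 3 it was 0.55 (limma adjusted p = 0.465). The dim probe set of Sost had deposited signals of 12.6, 7.7 and 2.1 in knockout arrays, against 14.7, 6.0 and 8.2 in control arrays. These overlapped and differed by -0.16 ± 0.21 on the log2 scale (SE). Both probe sets are listed under the same accession, and they differed in sign.

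Mepe, a matrix phosphoglycoprotein of mature osteocytes, showed the same low array as Sost but was dim. Its log2 levels were 6.09, 6.34 and 5.95 in knockout arrays and 5.96, 4.96 and 6.12 in control arrays. On control replicate 2 Mepe thus lay below 5.37, the lowest mean level tested. Its levels relative to its own mean were 0.19, 0.43 and 0.05 in knockout arrays and 0.05, -0.94 and 0.22 in control arrays. Those of Sost were 0.09, 0.28 and -0.05 in knockout arrays and -0.18, -0.72 and 0.58 in control arrays. Control replicate 2 was thus the lowest array for both. On that array Dmp1 lay at -0.03, Phex at -0.06 and Pdpn, the membrane glycoprotein podoplanin of early osteocytes, at -0.07, so these 3 were near their means. On the other arrays the mean centred level of the 14 tested osteocyte markers, Mepe among them, ran from -0.05 to 0.16. On control replicate 2 it was lowest, at -0.13. The level of skeletal muscle markers, the mean of 10 tested genes centred over the arrays, was also lowest there, at -3.89, against 2.29 and 2.18 in control replicates 1 and 3. It was -0.72, -0.81 and 0.96 in knockout arrays, and its part in the levels of Sost was not tested.

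**Figure D2:**
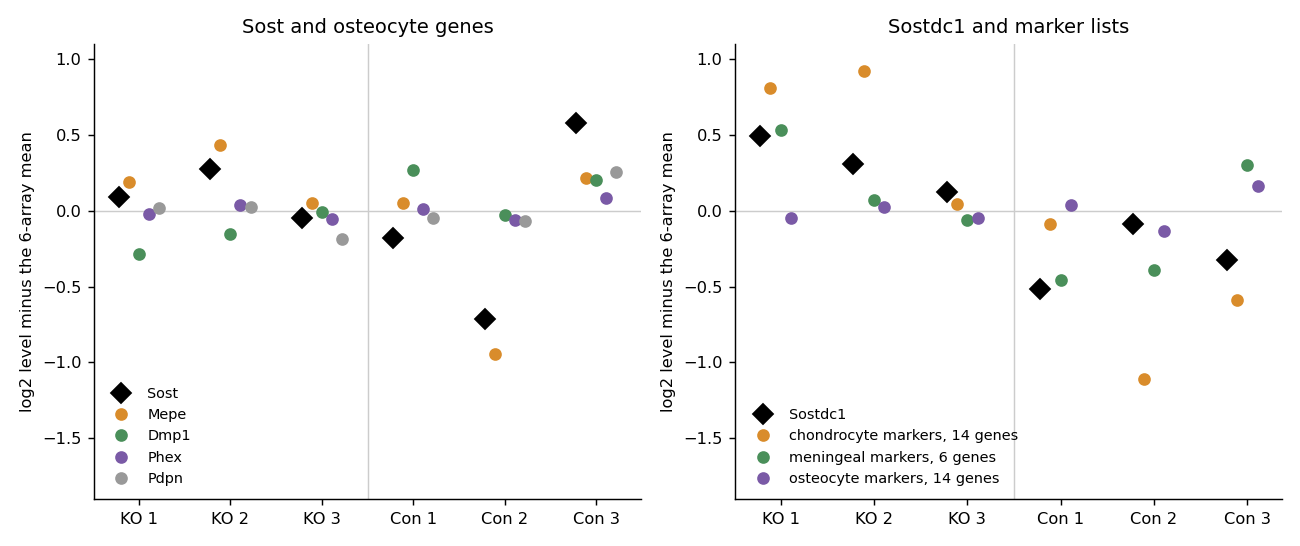
Levels on each array relative to the mean of all 6 arrays (log2), with knockout arrays (KO) left of control arrays (Con). The left panel shows Sost and 4 osteocyte genes, with Sost and Mepe lowest in control replicate 2, and the right panel shows Sostdc1 with the mean levels of 3 marker lists.

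Sostdc1 showed the largest difference of the 5 genes, and both of its probe sets separated the groups. The brighter one had log2 levels of 6.59, 6.40 and 6.22 in knockout arrays, against 5.58, 6.01 and 5.77 in control arrays. Every knockout array lay above every control array. The same held for the deposited signals, which were 78.5, 63.9 and 75.6 in knockout arrays and 33.2, 44.0 and 33.3 in control arrays, with means of 72.7 ± 7.73 in knockout and 36.8 ± 6.21 in control arrays (SD, n = 3 each).

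On the log2(signal + 16) scale Sostdc1 was 0.62 ± 0.16 higher (SE), with a 95% interval from 0.24 to 1.00, and did not pass the threshold (limma adjusted p = 0.315). Of the tested genes, 1.87% had a smaller p and 1.08% a higher difference. The pseudocount compresses this dim gene: its difference was 0.80 with a pseudocount of 1 and 0.36 with a pseudocount of 64. With 1 array left out the difference ran from 0.51 to 0.73, and the adjusted p closest to the threshold was 0.0732, without control replicate 2.

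The dimmer probe set of Sostdc1 had deposited signals of 45.5, 41.0 and 34.8 in knockout arrays, against 13.9, 13.4 and 10.8 in control arrays. Here too the groups did not overlap, and the ratio of the means was 3.18, against 1.97 for the brighter probe set. The control signals of the dimmer one lay under the pseudocount of 16 and under the control array medians of 18.7 to 22.7. Its ratio therefore rests on values near the floor. Both ratios are of signals before quantile normalisation, where the median log2 difference of all tested genes was 0.14 in place of -0.01. In a fit over all 45037 probe sets with no filter on level, the log2 difference of the dimmer probe set was 0.88 ± 0.20 (SE, limma adjusted p = 0.308), and that of the brighter one was 0.62 ± 0.18 (SE, limma adjusted p = 0.397). In that fit 4.74% of probe sets were higher at an unadjusted p under 0.05, and 7.57% were higher with groups that did not overlap. Among the 8 probe sets, 3 met the first and 3 the second of these, the same 3. The 2 probe sets of Sostdc1 share an accession and are no replicates of each other.

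Markers of other cell types are given beside Sostdc1, and none of them passed an adjusted p of 0.05 in limma. Of the chondrocyte markers, 14 of 14 were tested and 13 were higher and 1 lower, with a median difference of 1.33. At an unadjusted p under 0.05, 10 were higher and 1 lower, and groups did not overlap for the same numbers. Over all tested genes, 48.3% were higher by any amount, and 5.85% were higher and 4.69% lower at that p. By groups that did not overlap, 9.23% were higher and 7.76% lower. The same shares stand beside the marker lists that follow. The chondrocyte markers had mean centred levels of 0.81, 0.92 and 0.05 in knockout arrays and -0.09, -1.11 and -0.59 in control arrays. Their summed signals ran from 4937 to 9329 in knockout and from 3089 to 5453 in control arrays, so the mean levels did not overlap while the sums did. Of their 2 brightest genes Col2a1, the main cartilage collagen, differed by 1.46, and Col11a2, a minor collagen chain and the 1 lower marker, by -0.41. Osteoclast markers, 7 of 10 tested, had a median difference of 0.04, and 1 was higher at an unadjusted p under 0.05. They had levels of 0.20, 0.15 and 0.07 in knockout and -0.40, -0.01 and -0.01 in control arrays, and summed signals from 5860 to 7260 in knockout and from 4294 to 6282 in control arrays, with overlapping sums. Of their brightest genes the protease Mmp9, the 1 marker at that threshold, differed by 1.55 and the protease Ctsk by 0.11, and the other 5 ran from -0.07 to 0.37. Of the meningeal markers, 6 of 8 were tested, 4 higher and 2 lower with a median of 0.30, and 3 were higher at an unadjusted p under 0.05. They had levels of 0.53, 0.07 and -0.06 in knockout and -0.46, -0.39 and 0.30 in control arrays and summed signals from 2529 to 2978 in knockout and from 1944 to 2738 in control arrays, both overlapping. Pericyte and smooth muscle markers went the other way: 9 of 10 tested were lower and 1 higher, with a median of -0.45 and 4 lower at an unadjusted p under 0.05. Their summed signals did not overlap, from 15503 to 16598 in knockout and from 17120 to 26636 in control arrays, while their mean centred levels of -0.18, -0.22 and -0.26 in knockout and 0.40, -0.21 and 0.47 in control arrays did. Their brightest genes, Rgs5, a regulator of G protein signalling, and Acta2, the smooth muscle actin, differed by -0.59 and -0.36. None of the chondrocyte, osteoclast, meningeal or pericyte and smooth muscle markers with a probe set was at 0 on any array. Within the knockout arrays the lowest Sostdc1 level and the lowest chondrocyte level fell on replicate 3, whereas within the control arrays Sostdc1 was highest on replicate 2, where the chondrocyte level was lowest. The part of these cells in the difference was not tested. Of 9 markers of epithelia, a known site of Sostdc1 in tooth and skin, 1 was bright enough to be tested, and their summed signal ran from 150 to 212 in knockout and from 152 to 159 in control arrays.

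**Figure D3:**
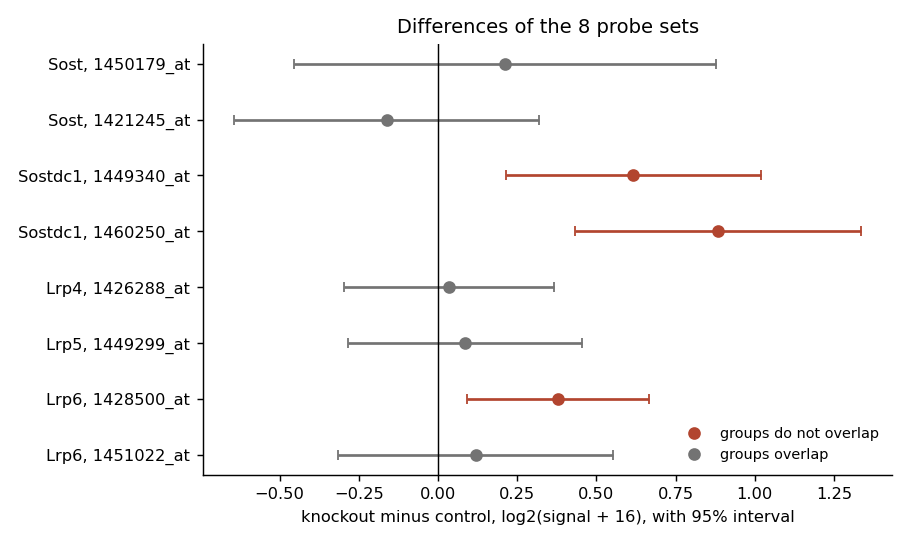
Differences of the 8 probe sets, knockout minus control, on the log2(signal + 16) scale, with 95% intervals from the limma fit over all probe sets. Red points have groups that do not overlap, which holds for both Sostdc1 probe sets and for the brighter one of Lrp6. Grey points, whose intervals cross 0, are the other 5.

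Lrp6, a Wnt coreceptor closely related to Lrp5, was higher by its bright probe set. Its log2 levels were 8.29, 7.88 and 8.14 in knockout arrays, against 7.71, 7.69 and 7.77 in control arrays. The control arrays stood close together, with a standard deviation of 0.04, and the lowest knockout array lay 0.10 above the highest of them. The deposited signals were 288.8, 208.4 and 335.3 in knockout arrays and 204.4, 176.3 and 177.3 in control arrays.

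The difference for Lrp6 was 0.38 ± 0.13 (SE), or 1.30-fold, with a 95% interval from 0.09 to 0.67 and no call (limma adjusted p = 0.402). With 1 array left out it ran from 0.28, without knockout replicate 1, to 0.49, without knockout replicate 2. The dimmer probe set of Lrp6 overlapped between the groups, with 5.87, 5.83 and 5.88 in knockout arrays and 6.01, 5.80 and 5.41 in control arrays. It differed by 0.12 ± 0.19 (SE), and by -0.045 without control replicate 3. With the mean of both probe sets Lrp6 differed by 0.25 (limma adjusted p = 0.536).

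Lrp5, whose gain and loss of function in people give high and low bone mass, lay close to the level below which genes were left out. Its log2 levels were 5.50, 5.58 and 5.60 in knockout arrays, against 5.59, 5.49 and 5.36 in control arrays. The groups overlapped, with a difference of 0.08 ± 0.14 (SE, limma adjusted p = 0.863). The 95% interval ran from -0.24 to 0.41, which is 0.848-fold to 1.33-fold on this scale.

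Lrp4 had the smallest difference of the 5 genes. Its log2 levels were 8.31, 8.14 and 8.52 in knockout arrays, against 8.41, 8.41 and 8.03 in control arrays. The groups overlapped, with the highest value in knockout replicate 3 and the lowest in control replicate 3. They differed by 0.04 ± 0.15 (SE, limma adjusted p = 0.950), with a 95% interval from -0.31 to 0.38. It was -0.06 without knockout replicate 3 and -0.09 without control replicate 3.

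**Figure D4:**
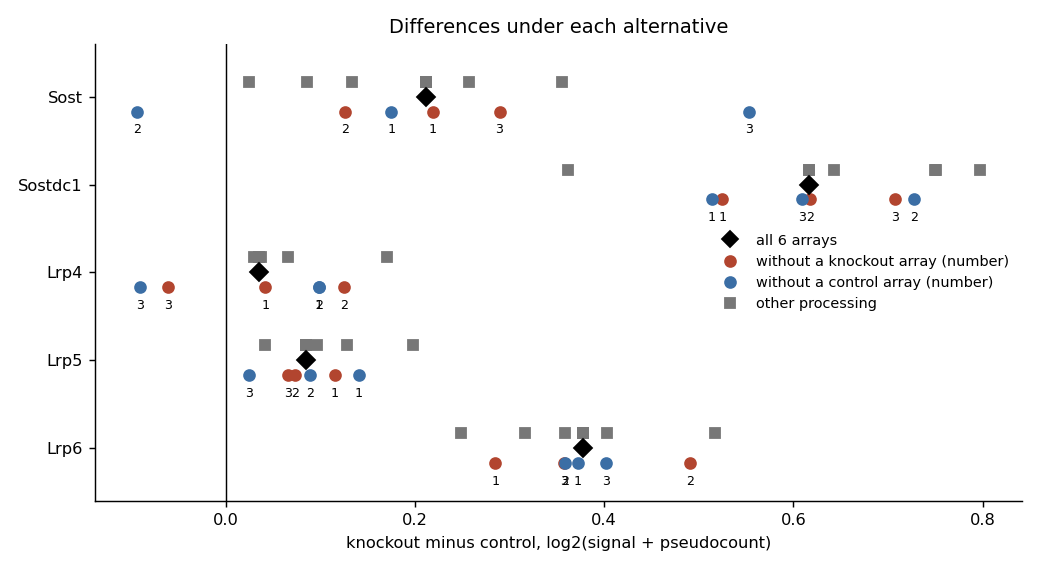
Differences of the 5 genes, knockout minus control (log2), with all 6 arrays (black diamonds), with 1 array left out (circles, red for a knockout and blue for a control array, numbered by replicate) and with other processing (grey squares). Sostdc1 and Lrp6 stay above 0 throughout, Sost crosses 0 without control replicate 2, and Lrp4 crosses it without replicate 3 of either genotype.

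Genes with the most similar pattern over the 6 arrays were sought among all tested genes for Sost, Sostdc1 and Lrp6, whose levels spanned more than 0.5 on the log2 scale. Likeness was the root mean square gap between centred log2 levels, and it is a description of 6 arrays. For Sost, which spanned 1.29, the closest were Pax1 with a gap of 0.05, Ntrk3 with 0.08 and Lgr5 with 0.13. For Sostdc1, which spanned 1.01, they were Scara3 with a gap of 0.08, Ebf4 with 0.09 and Alx1 with 0.09. For Lrp6, which spanned 0.60, they were Cdk12 with a gap of 0.03, Angptl4 with 0.06 and Epha2 with 0.07. Pax1, Ntrk3, Lgr5, Ebf4 and Alx1 were dim, with mean levels from 5.55 to 5.86, near the lowest level tested, 5.37. The second probe set of Lgr5 differed by -0.07, against 0.21 for the brightest. Other probe sets of Cdk12 ran from -0.14 to 0.45 and of Ntrk3 from -0.07 to 0.14. Second probe sets of Pax1, Alx1 and Angptl4 were higher, as the brightest were.

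Genes for partners of these receptors and for other Wnt and BMP modulators went both ways. Of 11 tested genes for secreted Wnt and BMP modulators, receptor chaperones and ligands around Lrp4, Lrp5 and Lrp6, 8 were higher and 3 lower, with a median of 0.17. Over all tested genes 48.3% were higher, a share that also stands beside the lists that follow. Of these 11, at an unadjusted p under 0.05, 1 was higher, Dkk3 (0.32), and 1 lower, Dkk1 (-0.70). The shares over all tested genes were 5.85% higher and 4.69% lower. Dkk1 is a secreted inhibitor that binds Lrp5 and Lrp6 as sclerostin does. Agrn, the ligand of Lrp4 at the nerve-muscle synapse, differed by -0.21 ± 0.10, and Lrpap1, a chaperone of this receptor family, by 0.21 ± 0.11 (SE). The dim second probe set of Agrn differed by 0.17, and with the mean of both Agrn differed by -0.02 (limma adjusted p = 0.961). Without control replicate 2, where 0.788% of tested genes passed as higher and 1.88% as lower, Dkk1 passed as lower (-0.94, limma adjusted p = 0.0136), and 0 of the 5 genes passed.

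Other receptors of the LDL receptor family, to which the 3 coreceptors belong, were higher for 5 and lower for 2 of 7 tested members, and their median was 0.12. Lrp1, a large endocytic receptor, had 9.60, 9.56 and 9.49 in knockout arrays, against 9.14, 9.43 and 9.35 in control arrays. Its groups did not overlap, with a difference of 0.25 ± 0.10 (SE, limma adjusted p = 0.467). The dimmer second probe set of Lrp1 overlapped between the groups and differed by 0.05, and the mean of both differed by 0.15. Sorl1, a sorting receptor, differed by 0.37 ± 0.17, Lrp10 by 0.18 ± 0.13 and Vldlr, a lipoprotein receptor, by -0.12 ± 0.11 (SE). Single arrays moved these values, with Sorl1 at 0.23 without control replicate 1, Lrp10 at 0.07 without knockout replicate 2 and Vldlr at -0.04 without control replicate 2. The other probe sets of Sorl1 differed by 0.52, with groups that did not overlap, and by 0.11. The other probe sets of Vldlr ran from -0.38 to 0.01, and the one at -0.36 had groups that did not overlap.

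Of 21 tested genes of the relay inside the cell, from the coreceptors to β-catenin, 16 were higher and 5 lower (median 0.05). Over all tested genes 48.3% were higher. The list mixes genes that promote and genes that restrain signalling, so its count gives no direction of the pathway. Tcf7l2, a transcription factor that binds β-catenin, had 8.16, 8.13 and 8.19 in knockout arrays, against 7.83, 7.99 and 7.71 in control arrays. The groups did not overlap, with a difference of 0.32 ± 0.11 (SE, limma adjusted p = 0.402). Its relative Tcf7l1 differed by 0.38 ± 0.17 (SE). Gsk3b and Csnk1a1, kinases that mark β-catenin for degradation, differed by -0.30 and -0.13. Their other probe sets ran from -0.19 to 0.47 for Gsk3b and from -0.19 to 0.52 for Csnk1a1, so their directions were not settled. Ctnnb1, which encodes β-catenin, differed by 0.02.

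Known regulators of Sost were higher for 8 and lower for 9 of 17 tested genes (median -0.05). Mef2c, a transcription factor that acts on the distal enhancer of Sost, had 9.71, 9.61 and 9.53 in knockout arrays, against 10.08, 10.15 and 10.01 in control arrays. The groups did not overlap for this brightest probe set, at a difference of -0.46 ± 0.09 (SE, limma adjusted p = 0.203). The other 4 probe sets of Mef2c overlapped between the groups and ran from -0.27 to 0.37. Sik3, a kinase that acts on class II histone deacetylases, differed by 0.32 by its brightest probe set, while its other 3 overlapped between the groups and ran from -0.18 to 0.06 and the mean of all 4 differed by 0.05. Piezo1, a mechanically gated channel, differed by 0.33 and Sp7, an osteoblast transcription factor, by -0.17. Of the BMP pathway, which Sostdc1 inhibits, 10 of 18 tested genes were higher and 8 lower, with a median of 0.01 and 0 at an unadjusted p under 0.05 in limma. Smad7, an inhibitory Smad, differed by 0.22, Bmp4 by -0.45, Id1, a BMP target, by -0.41 and Bmpr1a, a BMP receptor, by 0.13. The direction of Bmpr1a was not settled: its other 5 probe sets ran from -0.18 to 0.64, and the difference was 0.05 without knockout replicate 2. Bmp4 and Id1 varied with single control arrays. Without control replicate 2, where 1.88% of tested genes passed as lower, both passed as lower (-0.75 and -0.70, limma adjusted p = 0.0417 and 0.0382). Without control replicate 3 Bmp4 differed by -0.23, and without control replicate 1 Id1 differed by -0.19, and neither passed.

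**Figure D5:**
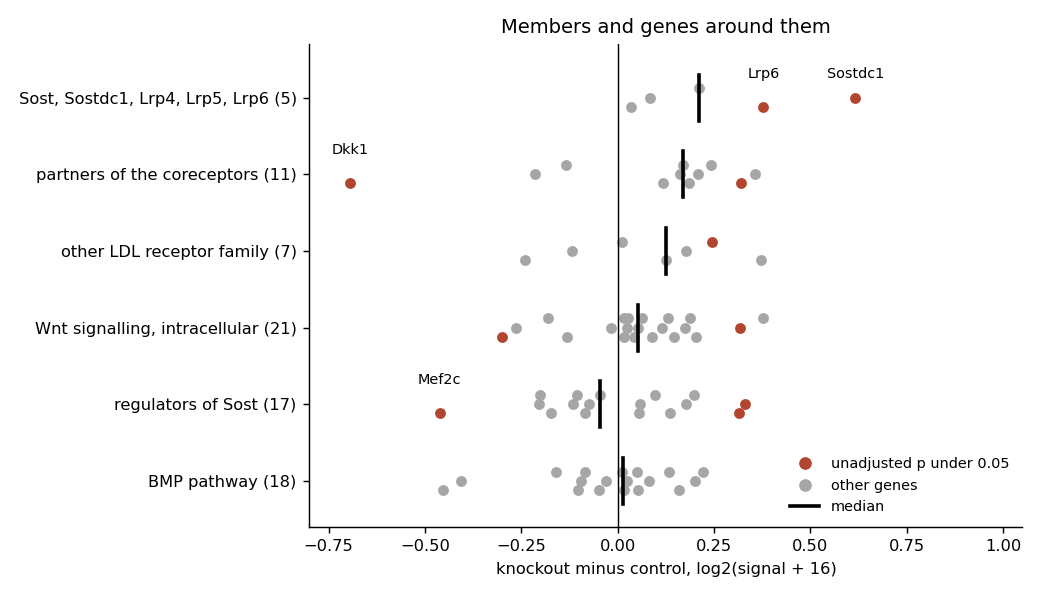
Differences of all tested genes in 6 lists, knockout minus control on the log2(signal + 16) scale, with the number of tested genes in brackets and the median as a black bar. Red points have an unadjusted p under 0.05. Sostdc1 and Lrp6 lie at 0.62 and 0.38, and Dkk1 and Mef2c at -0.70 and -0.46.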

How the data were processed

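The authors deposited a linear intensity for each probe set on each array. Per the submitters' processing notes the tool was GCOS, the software of the array's maker; how background and scaling were handled is not stated in the sources used here. The small number of arrays limits precision. From the deposited intensity, log2(signal + 16) was computed and the 6 arrays were quantile normalised, after 64 of 45101 probe sets, the array's controls, were left out. Probe sets with 1 gene (34945) took the current RefSeq symbol where their identifier was found (34741), and each gene was read by its probe set of highest mean. Genes in the lowest 40% by mean over the 6 arrays were dropped; all 5 genes described passed this filter. The groups were compared with limma 3.58.1 (R 4.3.3), 2-sided, with a mean-variance trend and Benjamini-Hochberg adjustment at 0.05, for genes and, with no filter, for all probe sets. Intervals are 95%. The steps were tested on simulated data, in 20 runs with 200 changed genes each. Of the changes, 32.8% were called at 1.5-fold, 68.9% at 2-fold and 94.0% at 4-fold, with 7.2 false calls per run. The simulated noise was independent between arrays and genes, which real arrays need not follow. A gene that was not called may thus still differ by 1.5-fold.

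The genes and lists were chosen with earlier results of these data known, and Sostdc1 is recalled to be singled out in the study's own report, so its values are no independent evidence. Named beside the 5 genes were up to 4 genes per list with the smallest p, 4 osteocyte genes, the 3 most similar patterns per gene, the 2 brightest genes of marker lists set beside a result, and the targeted gene Esr1; Ctnnb1 was named after its value was seen. Alternatives were the deposited scaling, pseudocounts of 1 and 64, other filters, the mean of probe sets, array weights, the replicate number as a block, and each array left out.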

Additional observations from a re-analysis of the deposited data

How the results depend on the processing

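None of the 5 genes passed an adjusted p of 0.05 under any alternative run. Read by gene, Sostdc1 kept its sign in 13 alternatives (0.36 to 0.80) and Lrp6 in 14 (0.25 to 0.52). The dimmer probe set of Lrp6 turned to -0.045 without control replicate 3, and that of Sost to 0.035 without knockout replicate 3. With the filter of 60%, Sostdc1 and Lrp5 were left out and have no value. Sost had -0.093 without control replicate 2 and ran from -0.093 to 0.55 with 1 array left out. Lrp4 ran from -0.091 to 0.125, with -0.061 without knockout replicate 3 and -0.091 without control replicate 3. Over all genes the limma fit called 0 higher and 0 lower (639 and 512 at an unadjusted p under 0.05), and with 1 array left out from 0 to 86 higher and from 0 to 205 lower, the highest counts without control replicate 2. With the deposited scaling 30 were higher and 0 lower, while the median of all genes was 0.14 in place of -0.01; there Sost differed by 0.36, Sostdc1 by 0.75, Lrp4 by 0.17, Lrp5 by 0.20 and Lrp6 by 0.52. Signs turned for Vldlr (0.045), Csnk1a1 (0.038), Phex (0.136) and Pdpn (0.064) with the deposited scaling, for Gsk3b (0.011) and Csnk1a1 (0.067) with the mean of all probe sets, and for Phex (0.0098) and Pdpn (0.012) without control replicate 3; with 1 array left out Phex ran from -0.060 to 0.0098 and Pdpn from -0.147 to 0.012. The cause was not tested. Correlations of deviations between arrays of the same replicate number were -0.38, 0.10 and -0.04. From 3 arrays per group these cannot decide whether the numbers pair the arrays. With the replicate block 0 genes were called, with Sost at 0.21, Sostdc1 at 0.62 and Lrp6 at 0.38 (limma adjusted p = 0.883, 0.611 and 0.635). Of the 8 probe sets, 0 passed with the deposited scaling or with any array left out.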
